A study of Saccharomyces cerevisiae with 4 samples.

Results

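The genes described here act in vesicle traffic and lipid transfer of budding yeast, and 17 of the 1892 listed f5C positions lay in 9 of them. They are VPS41 (YDR080W), OSH7 (YHR001W), SFB3 (YHR098C), SEC23 (YPR181C), SEC24 (YIL109C), SEC31 (YDL195W), COP1 (YDL145C), ERV46 (YAL042W) and ERP1 (YAR002C-A), and every listed position assigned to one of these systematic names was taken. The genes were chosen by their function with their treated mutated fractions known, since VPS41, OSH7 and SFB3 each hold a position near 30% and the others do not. Levels of these positions and the gap between them are therefore descriptions, with no test. A position assigned to QCR10 (YHR001W-A), the gene next to OSH7, has a similar systematic name and was not counted.

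f5C-seq was done on poly(A)+ RNA of Saccharomyces cerevisiae grown from a single colony in rich medium at 28 °C, in 2 treated and 2 input libraries numbered 1 and 2 in each group. In the treated libraries the RNA fragments had been incubated with 0.9 M pyridine borane and 0.6 M NaOAc for 24 h at 37 °C and pH 5.2. The input libraries were made from the same kind of RNA without pyridine borane, and no incubation is recorded for them. The labels name no strain or genotype and give no culture of origin for replicates 1 and 2, and their spread, given as SD, may be technical. Pyridine borane turns 5-formylcytidine (f5C), an oxidised form of 5-methylcytidine, into dihydrouridine, which reverse transcriptase reads as U, so a modified cytidine appears as a mutated read after treatment only.

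Proteins leave the endoplasmic reticulum in vesicles with a COPII coat. The small GTPase Sar1 recruits the inner coat of Sec23 and Sec24, which bends the membrane and binds cargo, and the outer cage of Sec13 and Sec31 then assembles over it. COPI vesicles carry proteins back from the Golgi, p24 proteins and other receptors load cargo into both kinds of vesicle, and tethering complexes such as HOPS catch vesicles at the vacuole before fusion. Oxysterol-binding homologues (the OSH family) move lipids between membranes that lie close to each other, without a vesicle.

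Over all 1892 listed positions, coverage was 57 to 184508 reads in treated replicate 1, 44 to 129535 in treated replicate 2, 51 to 159431 in input replicate 1 and 43 to 132797 in input replicate 2. The 17 positions had 141 to 2662 and 100 to 1824 reads in treated replicates 1 and 2, and 158 to 2269 and 124 to 1873 reads in input replicates 1 and 2. All 17 had a higher mutated fraction in treated than in input RNA in both replicates, as did every listed position (100% called by Fisher exact test with Benjamini-Hochberg adjustment). The authors chose the list on that contrast, so nothing is read from this count. The level of a position is the mean over both treated replicates of its mutated fraction, in percent of covering reads. Intervals are Wilson 95% intervals of the summed treated reads. They cover counting error only, since no molecular identifiers are stated.

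OSH7 had the highest level of the 9 genes. It encodes a lipid transfer protein that brings phosphatidylserine from the endoplasmic reticulum to the plasma membrane. At its position on chromosome VIII at 106258 (plus strand), 89 of 275 reads (32.4%) were mutated in treated replicate 1 and 49 of 141 reads (34.8%) in treated replicate 2, against 0 of 231 and 0 of 195 reads in the input replicates. The replicates lay close together, with a level of 33.6% ± 1.69 (SD, n = 2) and an interval of 28.8% to 37.8%. With 0 mutated input reads the input share could be as high as 0.704% (3 reads over the summed coverage). This position ranked 5 of 1892 by level.

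The other OSH7 position, 912 nt further along the chromosome at 107170, had 33 of 384 (8.59%) and 27 of 249 (10.8%) mutated reads in treated replicates 1 and 2, and 0 of 326 and 0 of 276 in input. Its level was 9.72% ± 1.59 (SD, n = 2), with an interval of 7.44% to 12.0%. Both positions lie in one gene and had no mutated read in input, and the higher one was chosen for its level. The treated-to-input coverage ratios of the higher and the lower position were 1.19 and 1.18 in replicate 1, and 0.723 and 0.902 in replicate 2.

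VPS41 encodes a subunit of HOPS, the complex that tethers vesicles to the vacuole. Its single listed position lay on chromosome IV at 604512 (plus strand). There 36 of 141 reads (25.5%) were mutated in treated replicate 1 and 37 of 100 reads (37.0%) in treated replicate 2, against 0 of 158 and 0 of 124 reads in input, where a share of up to 1.06% could have gone unseen. The level was 31.3% ± 8.11 (SD, n = 2), with an interval of 24.8% to 36.4%, and ranked 8 of 1892. This was the shallowest of the 17 positions and the one with the widest spread between replicates. A difference between the replicates did not pass the Fisher exact test (two-sided p = 0.0649, unadjusted, and adjusted p = 1.00 over all listed positions).

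SFB3, also known as LST1, encodes a Sec24-type cargo subunit of the COPII coat that is needed for efficient export of the plasma membrane proton pump Pma1. At its position on chromosome VIII at 301587 (minus strand), 154 of 461 reads (33.4%) were mutated in treated replicate 1 and 81 of 295 reads (27.5%) in treated replicate 2. Input had 1 of 344 and 0 of 299 mutated reads. The level was 30.4% ± 4.21 (SD, n = 2), with an interval of 27.9% to 34.5%, and ranked 9 of 1892. SFB3 was thus the deepest of the 3 high positions and had the narrowest interval, and here replicate 1 was the higher one (exact p between replicates = 0.0910, unadjusted). The intervals of the OSH7, VPS41 and SFB3 positions overlapped each other. Differences among them were not tested, and nothing is read from their order.

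**Figure D1:**
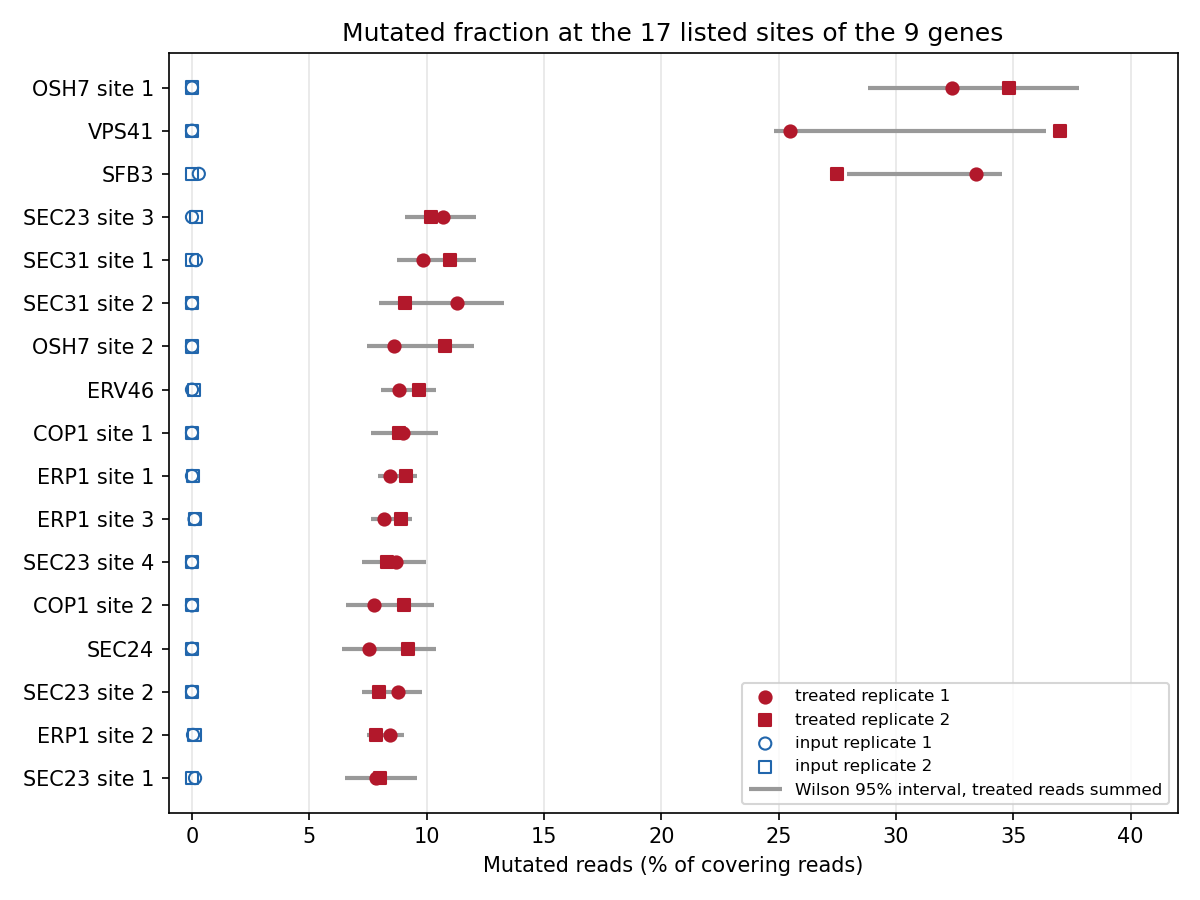
Mutated reads in percent of covering reads (x axis) at each of the 17 positions (rows, ordered by level and numbered within a gene by chromosome coordinate), with filled red points for the treated and open blue points for the input replicates, and grey bars for the Wilson 95% interval of the summed treated reads. OSH7 site 1, VPS41 and SFB3 lie between 25.5% and 37.0% in the treated libraries, the other 14 positions between 7.55% and 11.3%, and input is at most 0.291% everywhere.

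Between the 3 high positions and the other 14 there was an empty range of 20 percentage points. The lowest of the high positions was SFB3 with 30.4%, and the highest of the others was a SEC23 position with 10.5%. The medians were 31.3% at the 3 high positions and 8.66% at the other 14, a gap of 22.6 points that the choice of genes used. In the whole list the position next above OSH7 was in RDH54 (35.0% ± 14.8, SD, n = 2, at 57 and 44 treated reads), and the position next below SFB3 was in YGL140C (29.8% ± 4.13 at 226 and 145 treated reads). Positions in ECM29 (32.3%) and BLM10 (32.0%) lay between OSH7 and VPS41.

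The inner COPII coat was represented by SEC23 and SEC24 besides SFB3. SEC23, which encodes the activator of the Sar1 GTPase, had 4 positions on the minus strand of chromosome XVI, the most of the 9 genes. At 899474 there were 94 of 881 (10.7%) and 70 of 684 (10.2%) mutated reads in treated replicates 1 and 2, against 0 of 760 and 1 of 637 in input, a level of 10.5% ± 0.308 (SD, n = 2). Only 5 nt away, at 899479, the counts were 79 of 910 (8.68%) and 58 of 699 (8.30%) in treated replicates 1 and 2, and 0 of 797 and 0 of 658 in input, a level of 8.49% ± 0.271. Reads that cover one of these neighbours mostly cover the other, and the intervals of 9.06% to 12.1% and 7.25% to 9.98% overlapped. At 898934 the level was 8.36% ± 0.579, with 8.77% and 7.95% in the treated replicates and no mutated read in input. At 897945 it was 7.93% ± 0.141, the lowest of the 17, with 7.83% and 8.03% in the treated replicates, and 1 of 765 and 0 of 654 mutated reads in input. The positions of SEC23 thus spanned 7.93% to 10.5%, and its levels were close between replicates.

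SEC24 encodes the main cargo-binding subunit of the inner coat and is a paralog of SFB3. Its only position, on chromosome IX at 158310 (minus strand), had 33 of 437 (7.55%) and 25 of 272 (9.19%) mutated reads in treated replicates 1 and 2, and 0 of 378 and 0 of 308 in input. The level of 8.37% ± 1.16 (SD, n = 2) had an interval of 6.38% to 10.4%. In replicate 1 its 33 mutated reads were the smallest number that passes the limits of the list at this coverage.

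SEC31, which encodes the outer cage subunit, had positions at 107718 and 108514 on the plus strand of chromosome IV. The first had 75 of 761 (9.86%) and 55 of 501 (11.0%) mutated reads in treated replicates 1 and 2, and 1 of 588 and 0 of 549 in input. The other had 33 of 293 (11.3%) and 20 of 220 (9.09%) in treated replicates 1 and 2, and 0 of 310 and 0 of 237 in input. Their levels of 10.4% ± 0.794 and 10.2% ± 1.54 (SD, n = 2) were nearly alike although they lay 796 nt apart, and replicate 2 was the higher one at the first and the lower one at the other.

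COP1, which encodes the alpha subunit of the COPI coat, had positions 2016 nt apart on the minus strand of chromosome IV, at 194974 and 196990. The mutated fractions were 9.01% and 8.84% of 954 and 622 reads at the first, and 7.77% and 9.03% of 528 and 310 reads at the other, in treated replicates 1 and 2. None of the 1431 and 905 summed input reads at these positions was mutated, which leaves room for input shares of up to 0.210% and 0.331%. The levels of 8.93% ± 0.122 and 8.40% ± 0.896 (SD, n = 2) had overlapping intervals of 7.64% to 10.5% and 6.56% to 10.3%.

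The cargo receptor genes had the deepest coverage. ERV46 encodes a membrane protein that, with Erv41, retrieves escaped proteins to the endoplasmic reticulum. At chromosome I position 62492 (plus strand) it had 130 of 1476 (8.81%) and 93 of 962 (9.67%) mutated reads in treated replicates 1 and 2, against 0 of 1137 and 1 of 977 in input, a level of 9.24% ± 0.608 (SD, n = 2). ERP1 encodes a p24 protein that forms a complex with Erp2, Emp24 and Erv25 and had 3 positions on the minus strand of chromosome I. Their levels were 8.78% ± 0.464 at 154279, 8.15% ± 0.433 at 154282 and 8.55% ± 0.525 at 154400, at 4012 to 4486 summed treated reads. The first 2 were 3 nt apart and share most of their reads, and replicate 2 was higher at one (9.11% against 8.45% in replicate 1) and lower at the other (7.84% against 8.45%). The intervals of the 3 ERP1 positions overlapped, within 7.44% to 9.58%. ERP1 also had the highest numbers of mutated input reads, with 0, 1 and 2 in input replicate 1 and 1, 2 and 2 in input replicate 2. At its depth these were at most 0.139% of the reads, below the 0.291% of SFB3 in input replicate 1.

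The 17 positions had a median level of 8.93% and the 14 lower ones a median of 8.66%, against 9.0% over all 1892. By level the 14 lower ones ranked from 370 to 1729 of 1892. A level under 10% was found at 11 of the 17, all among the 14 lower ones, against 72.5% of all listed positions. A level of 20% or more was found at 3 of the 17, the ones chosen for it, against 1.06% of all. Mutated reads were absent from both input libraries at 9 of the 17, against 64.1% of all listed positions. The 17 were deeper in input, with median coverages of 760 and 637 in replicates 1 and 2, against 417.5 and 338 over the list. The part of depth in this count was not tested. Input reads summed over the 17 positions were mutated at 0.0419% and 0.0588% in replicates 1 and 2, against 0.0473% and 0.0444% over the whole list.

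Treated replicates were compared within each position by Fisher exact test on its reads. None of the 17 positions passed for a difference between treated replicates at an unadjusted p of 0.05, against 2.75% of all listed positions, and 0 of 1892 passed after Benjamini-Hochberg adjustment. The smallest exact p outside the 3 high positions was 0.405. Replicate 2 was the higher one at 10 of 17 positions, against 58.2% of the list. The absolute difference between replicates had a median of 0.860 points over the 17 positions and 0.870 points over the list, and it reached 11.5 points at VPS41 but no more than 2.25 points at the 14 lower positions. The list holds only positions that passed in both replicates, which leaves out those whose replicates differ most.

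VPS41 and the higher OSH7 position were less deeply covered than any of the other 14 (at least 256.5 reads), and SFB3 lay within their range. Mean treated coverage was 120.5 reads at VPS41, 208 at OSH7 and 378 at SFB3, against a median of 785.2 at the other 14 positions and 400.5 over the list. The 853 listed positions with a mean treated coverage of 120.5 to 378 reads, the range of these 3, had a median level of 9.58%. Of the other 14 positions, 3 fell in the same coverage range, namely the second ones of OSH7 and SEC31 and that of SEC24, with levels of 8.37% to 10.2%. Across positions, which share libraries and in some cases reads, Spearman's rho of level and mean treated coverage was -0.499 over the 1892 listed positions. It was -0.539 over the 17 positions, which include the 3 chosen for their level, and -0.257 over the 14 lower ones. The part of coverage in the high levels was not tested.

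**Figure D2:**
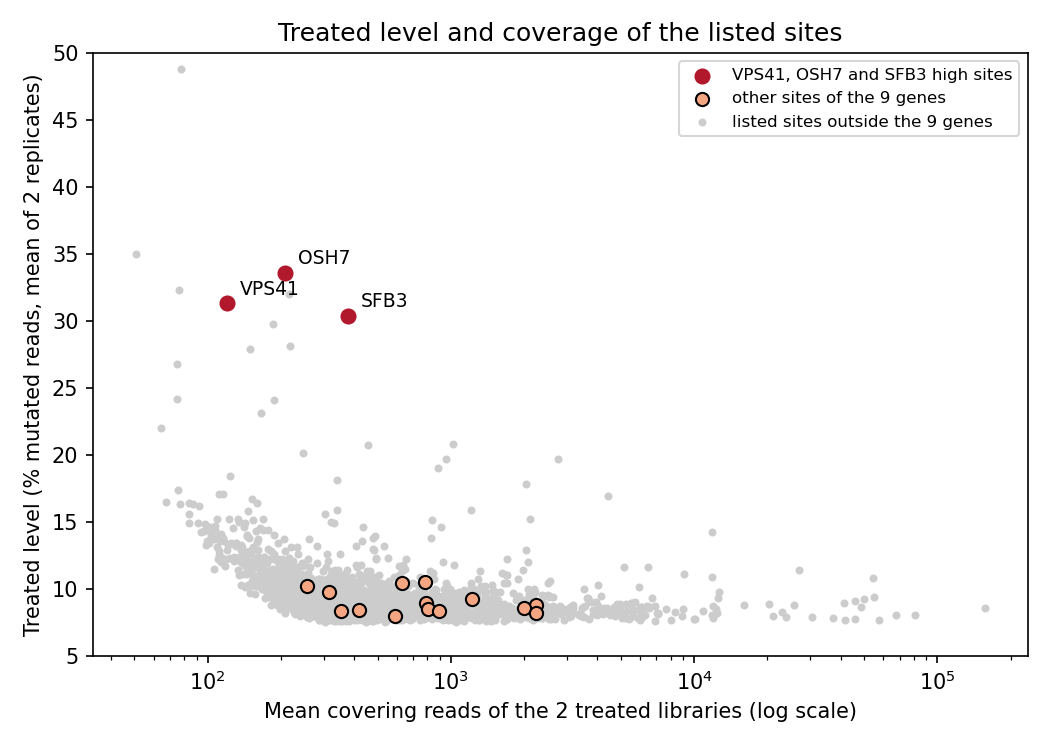
Treated level in percent (y axis, mean of 2 replicates) against the mean number of covering reads of both treated libraries (x axis, log scale), with the 3 high positions in red, the other 14 positions of the 9 genes in orange and the listed positions outside these genes in grey, of which 2 lie above the plotted range. VPS41, OSH7 and SFB3 stand at 30.4% to 33.6% and 120.5 to 378 reads, and the 14 others at 7.93% to 10.5%.

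Because a shallow position needs a higher fraction to enter the list, each position was also set against the smallest number of mutated reads that would pass at its own coverage. This number was computed from limits found in the list itself, namely a fraction of 7.5%, 10 mutated reads and a q-value of 0.01 under the binomial rates that the authors' p-values solve to, 1.83% and 1.81% in replicates 1 and 2. No listed position fell below it. At VPS41 the required numbers were 15 and 13 mutated reads in treated replicates 1 and 2, and the 36 and 37 found were 2.40 and 2.85 times these. OSH7 needed 21 and 14 reads and had 4.24 and 3.50 times as many, and SFB3 needed 35 and 23 and had 4.40 and 3.52 times as many. These multiples follow from the levels by which the 3 positions were chosen and are given as a description. The other 14 had 1.00 to 1.5 times the required number in replicate 1 and 1.04 to 1.45 times in replicate 2. Their medians were 1.14 and 1.18, and the medians over the whole list were 1.13 in both. Most positions of these genes therefore lay near the lower edge of what the list could hold, like the list as a whole.

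**Figure D3:**
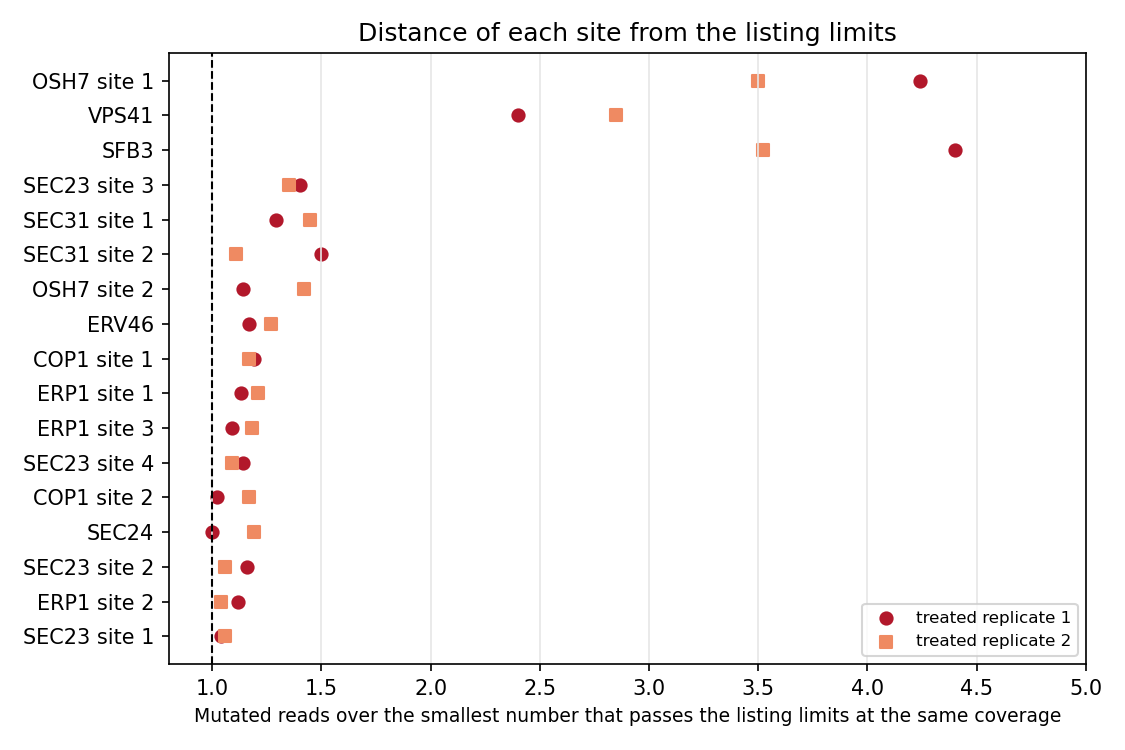
Mutated reads found, divided by the smallest number that passes the limits of the list at the same coverage (x axis), for each of the 17 positions (rows, as in the plot of mutated fractions), with a point for each treated replicate and a dashed line at 1. VPS41, OSH7 site 1 and SFB3 lie at 2.40 to 4.40 times the required number, and the other positions at 1.00 to 1.5 times.

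The number of covering reads was also set against input. The treated-to-input ratio of covering reads was 0.892 and 0.806 at VPS41 in replicates 1 and 2, 1.19 and 0.723 at OSH7, and 1.34 and 0.987 at SFB3. The medians over the list were 1.14 and 0.973. VPS41 was below the median in both replicates, SFB3 was above it in both, and OSH7 was above it in replicate 1 only. The 14 other positions ranged from 0.918 to 1.30 in replicate 1 and from 0.723 to 1.12 in replicate 2, with medians of 1.18 and 0.957. A difference in this ratio between the high and the other positions was not tested.

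The wider pathway was followed through 8 lists with 142 genes, of which 43 (30.3%) had a listed position, against 20.8% of the 6002 nuclear protein-coding genes of the R64 annotation. The 9 genes were chosen among genes with a position, and without them the count was 34 of 133 (25.6%), a setting chosen after seeing the data. Leaving out genes that all hold a position can only lower a share, so nothing is read from the drop. Coverage of genes without a position, gene length and number of cytidines were not analysed here, so these shares are not separated from expression and length. Over the 66 positions in these lists the median level was 9.04%, close to that of all listed positions.

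Among COPII genes 5 of 10 had a position. Besides the 4 members this was SAR1, which encodes the GTPase that starts the coat, with 9.21% and 7.83% in treated replicates 1 and 2 and a level of 8.52% ± 0.980 (SD, n = 2). Without the 4 members, which all hold a position, the count was 1 of 6 (16.7%), and leaving them out could only lower the share. SEC13, SEC16, SEC12, SED4 and SFB2, another paralog of SEC24, had none. Within this coat SFB3, chosen for its level, was the only gene with a level above 10.5%. In the COPI and Arf list 7 of 13 genes had a position, with levels of 7.67% to 13.2%, and without COP1 6 of 12 (50%). The highest was in SEC27, the beta-prime subunit, with 11.9% and 14.5% in the treated replicates (13.2% ± 1.85). RET2 of the same coat had 3 positions, SEC28 had 2, and the Arf GTPase-activating protein genes GLO3 and GCS1 had 2 each. The coat subunit genes SEC21, SEC26 and RET3 had none.

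Of the p24 proteins and cargo receptors 7 of 16 genes had a position, with levels of 7.80% to 11.7%. ERP2, whose product is in a complex with Erp1, had 11.8% and 11.7% (11.7% ± 0.0483), above all ERP1 positions, and ERV25 of the same complex had 7.91% ± 0.215. ERV41, the partner of ERV46, had 8.08% and 10.6% (9.31% ± 1.75), close to the 9.24% of ERV46. By level ERP2 ranked 190 and ERV25 1741 of 1892, and EMP24 had no position. Without ERV46 and ERP1 the count of this list was 5 of 14 (35.7%).

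HOPS and CORVET, tethering complexes that share a core, had positions in 2 of 8 genes, and both levels were above 20%, VPS41 having been chosen for it. Without VPS41 the count was 1 of 7 (14.3%). Beside VPS41 this was VPS18, a core subunit, on chromosome XII at 436721, with 14 of 68 (20.6%) and 14 of 60 (23.3%) mutated reads in treated replicates 1 and 2, and none of 63 and 61 in input. Its level of 22.0% ± 1.94 (SD, n = 2), with an interval of 15.6% to 29.8%, ranked 17 of 1892. However, 11 and 10 mutated reads were needed at this low coverage, and VPS18 had 1.27 and 1.40 times these numbers, less than VPS41. The other tethering complexes had positions in 5 of 34 genes (14.7%), and their highest level, 16.3% in COG2, was also at low coverage (82 and 72 treated reads) and at 1.00 and 1.18 times the required number.

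Among OSH and other lipid transfer genes 6 of 17 had a position, and without OSH7 5 of 16 (31.2%). OSH6, the closest paralog of OSH7, had 7.92% and 10.6% in the treated replicates (9.28% ± 1.93), beside 9.72% at the lower and 33.6% at the higher OSH7 position. How reads shared between paralogs were counted is not stated. OSH1 had 3 positions of 8.17% to 9.66%, OSH3 had a level of 10.7% ± 2.43, the tricalbin gene TCB3 had 4 positions of 8.0% to 9.41%, and VPS13, a large lipid transfer protein of contact sites, had 9.11% at the lower of its 2 positions. In this list the first OSH7 position, chosen for its level, was the only one above 10.7%. Clathrin and adaptor genes had positions in 6 of 22 genes, with a highest level of 13.7% ± 1.92 in CHC1, the clathrin heavy chain, and SNARE genes in 5 of 22, with a highest level of 10.9% ± 1.53 in NYV1, a vacuolar SNARE.

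**Figure D4:**
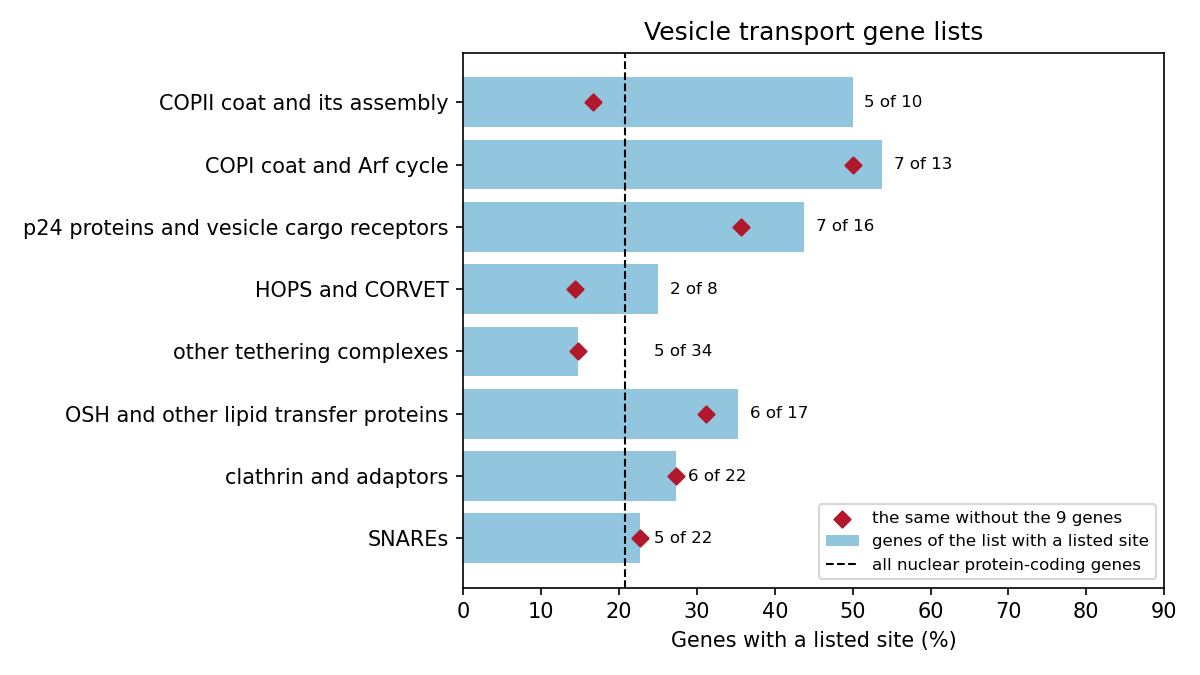
Share of genes with a listed position (x axis, percent) in each of 8 lists of vesicle transport and lipid transfer genes (bars, with counts), and among all nuclear protein-coding genes (dashed line, 20.8%). Red diamonds give the shares without the 9 genes, which are 16.7% for COPII, 50% for COPI, 35.7% for p24 proteins and cargo receptors, 14.3% for HOPS and CORVET and 31.2% for lipid transfer. Leaving out these genes, which all hold a position, can only lower a share.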

How the data were processed

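The single deposited table gives, per the file headers, counts of covering and of mutated reads for each position in each library, and the deposited fraction of mutated reads, which equals their quotient. The authors' ratio (fold change, treated over input) was not used, and their deposited p-value and q-value served only for the limits of the list. The submitters' processing notes name cutadapt and STAR. Not given in the sources used here are versions, build, site caller and mutated base. Positions are as deposited. No genome was used, so bases around the positions and places within genes were not analysed here.

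Groups and replicate numbers came from sample titles. Fisher exact tests (two-sided, at least 10 reads per group) ran on all 1892 positions with Benjamini-Hochberg adjustment. They were also run on counts simulated at the same coverages with binomial error only. How small a difference between replicates they could miss is not given here. Gene symbols came from RefSeq R64. Named were all 9 genes, some genes of the lists, among them the one with the highest level in each list, and the neighbours in level. Not every gene of the lists with a position is named. ECM29 and BLM10, which lie between the high positions, were added after their values were seen. The genes and lists were chosen with earlier results of these data known. The depth of whole libraries is unknown here. Tests ran in scipy 1.17.1 and pandas 2.3.3 under Python 3.11.15, and figures were drawn with matplotlib 3.10.9.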

Additional observations from a re-analysis of the deposited data

How the results depend on the processing

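The gap between the VPS41, OSH7 and SFB3 positions and the other 14 was 22.6 points, and 23.7 points without replicate 2. Without replicate 1 it was 25.7 points, which differed from 22.6 by more than the SD between replicates. Every setting used the same 3 positions, chosen for their level, so nothing is read from the gap being kept. It was 22.5 points from summed reads and 22.6 points after subtracting input. The median level of the 17 positions was 8.77% to 9.11% without either replicate, and no position had fewer than 100 reads in any library. The number of listed positions higher in treated RNA was 1892 with either replicate left out and 1888 of 1888 with at least 50 reads in every library, which the selection of the list fixes. Treated and input libraries share replicate numbers, but nothing says that these mark a pair. Over 1892 positions the coverage deviations of libraries with one number had a correlation of -0.00502. For the mutated fraction it was 0.0560, over the 206 positions with mutated reads in both input libraries. Neither value can show whether the numbers mark a pair, since paired libraries need not share such deviations. With the replicate number as a block the Cochran-Mantel-Haenszel test called 1892 positions and changed no call. No position passed for a difference between treated replicates after adjustment by Fisher exact test, by chi-square test or with at least 100 treated reads, while 52, 43 and 50 did at an unadjusted p of 0.05. Genes of the vesicle lists with a position numbered 43, and 34 without the 9 genes, a setting chosen after seeing the data. With 100 to 461 reads per treated library at the high positions, their intervals overlapped, and differences among them were not tested.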
